A study of Mus musculus with 15 samples.

Results

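The genes examined were 9 that mark T cells and cytotoxic lymphocytes: the T cell receptor chains Cd3d, Cd3e and Cd3g, the co-receptors Cd4 and Cd8a, and the cytotoxic granule genes Nkg7, Gzma, Gzmb and Prf1. Probes were taken by the gene name on the array, which gave 14 of the 41174 probes. A probe was kept when it was well above background in the sample channel on every array of at least 1 group. By this filter 11 of the 14 probes and 8 of the 9 genes were kept, of 21300 genes tested in all. The 1 probe of Prf1 did not pass, and its values are given as a description.

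The tissue came from female Swiss Webster mice with colitis-associated tumours. All mice received the carcinogen azoxymethane (7.4 mg/kg, into the peritoneum) and 3 cycles of 4% dextran sulfate sodium, which injures the colon lining, each with 7 days of the agent and 21 days of water. They entered at 7 weeks of age, began the cycles at 9 weeks and were killed at 18 weeks. Polypoid or inflamed colon was cut by laser capture from frozen sections, and its RNA was amplified in 2 rounds and hybridised in 1 dye against a common mouse reference RNA in the other. The 4 groups, with 2 mice each, were polypoid tissue of mice given 5-aminosalicylic acid (5-ASA, an anti-inflammatory drug, 75 mg/kg), polypoid tissue of untreated mice given vehicle, inflamed tissue of 5-ASA mice, and inflamed tissue of untreated mice. There was no colon of mice without azoxymethane and dextran sulfate sodium among the samples analysed here. A captured area is a mixture of cells, so fewer T cells and less RNA per T cell cannot be told apart in any value below.

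The CD3 chains carry the signal of the T cell receptor into the cell, and every mature T cell has them. CD4 and CD8 help the receptor bind class II and class I antigen-presenting molecules. Cytotoxic T cells and natural killer cells store perforin, which opens pores in a target cell, together with granzymes, proteases that enter through them. In the colon these cells lie in the lamina propria and, many of them CD8 positive, between the epithelial cells.

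The starts of 8 of the 9 genes were in the RefSeq table of build GRCm38.p6, which holds 250 bases before and 50 after each start, and Cd4 was not. The 3 CD3 genes lie together on chromosome 9, with Cd3g (chr9:44980382-44980681, minus strand) and Cd3d (chr9:44981536-44981835, plus strand) pointing away from each other and Cd3e at chr9:45009562-45009861 on the minus strand. The other start regions were on separate chromosomes, at chr6:71373177-71373476 for Cd8a, chr7:43436888-43437187 for Nkg7, chr13:113100932-113101231 for Gzma, chr14:56262285-56262584 for Gzmb and chr10:61297586-61297885 for Prf1. Of these, 3 are printed because their genes had the most negative differences between polypoid and inflamed tissue (Nkg7 and Cd3d) and the only positive one (Gzmb). They run 5′ to 3′ on each gene's strand, and capitals mark matches on either strand to RUNX (TGTGGT), ETS (AGGAAG), T-box (GGTGTGA), AP-1 (TGANTCA) and TCF (CTTTGA) motifs.
Cd3d: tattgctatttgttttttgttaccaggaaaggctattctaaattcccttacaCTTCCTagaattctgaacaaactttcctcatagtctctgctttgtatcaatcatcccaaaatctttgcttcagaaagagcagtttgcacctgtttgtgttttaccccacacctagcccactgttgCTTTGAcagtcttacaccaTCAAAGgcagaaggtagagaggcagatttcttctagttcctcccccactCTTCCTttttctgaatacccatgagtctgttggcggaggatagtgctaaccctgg
Nkg7: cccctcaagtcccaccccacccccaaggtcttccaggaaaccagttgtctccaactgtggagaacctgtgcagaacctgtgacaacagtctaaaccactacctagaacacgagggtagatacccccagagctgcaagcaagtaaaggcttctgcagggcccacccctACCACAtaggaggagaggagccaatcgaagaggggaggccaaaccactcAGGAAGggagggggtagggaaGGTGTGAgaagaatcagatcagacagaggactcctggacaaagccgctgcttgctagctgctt
Gzmb: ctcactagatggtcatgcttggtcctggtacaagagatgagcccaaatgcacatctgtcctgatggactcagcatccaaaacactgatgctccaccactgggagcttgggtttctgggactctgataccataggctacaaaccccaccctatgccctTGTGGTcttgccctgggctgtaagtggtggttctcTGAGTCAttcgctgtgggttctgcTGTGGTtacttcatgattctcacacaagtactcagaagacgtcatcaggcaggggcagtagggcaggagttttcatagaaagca

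Cd3d held 2 ETS matches, at -198 and -5 from the gene start, and 2 TCF matches, at -73 and -54. Nkg7 held 1 RUNX match at -83, 1 ETS match at -34 and 1 T-box match at -13. Gzmb held 2 RUNX matches, at -93 and -34, and 1 AP-1 match at -58. Among the 8 start regions, RUNX letters were in 4 (Nkg7, Gzma, Gzmb and Prf1) and ETS letters in 4 (Cd3d, Cd3e, Nkg7 and Prf1), whereas 16.8% and 35.4% of all 32851 start regions held them. The T-box letters occurred in 3.98% of all start regions, the AP-1 letters in 7.81% and the TCF letters in 16.0%, and each was in 1 of the 8. The letters of 4 further motifs were searched. Those of NFAT factors (GGAAA) were in 6 of the 8 and 61.3% of all regions, and those of the E-box (CAGCTG) in 3 of the 8 and 16.3% of all. Those of zinc finger factors of the GATA family, which are AGATAA, were in 1 of the 8 and 11.2% of all. The core promoter box TATAAA was in 0 of the 8 and 13.6% of all. No 2 matches overlapped. The 9 motifs were chosen by hand and the 5 in capitals after the matches were seen. A match describes the letters only.

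Each mouse gave 1 value per gene, the log2 of sample over reference RNA, from 2 arrays with the dyes exchanged, except 5-ASA inflamed replicate 2, which had 1 array. Sample channels had medians of 148.6 to 257.2 scanner units, with local background at 41 to 63. The arrays had been scanned in 4 sessions. Session 1 held replicate 1 of both inflamed groups, session 2 replicate 1 of both polypoid groups, session 3 replicate 2 of all groups but 5-ASA inflamed, and session 4 the last mouse. Polypoid and inflamed tissue therefore met in 1 session, and the tissue differences are also given within it. Its 1 inflamed sample was untreated, whereas its 2 polypoid samples were 1 of each arm. The differences within session 3 therefore also hold part of any difference between the arms. With session as a block the fit had 1 residual degree of freedom, and no gene of the whole table passed for polypoid over inflamed tissue. T cell RNA was detected in every group. The representing probes of Cd3d, Cd3e, Cd3g and Cd4 were above background on 15 of 15 arrays and that of Cd8a on 14. The natural killer receptor Ncr1 was above background on 0 of 15 arrays, whereas Klrd1 and Klrb1c, receptors of natural killer and some T cells, were so on 15. The levels of different probes are not comparable, so each gene is compared with itself.

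**Figure D1:**
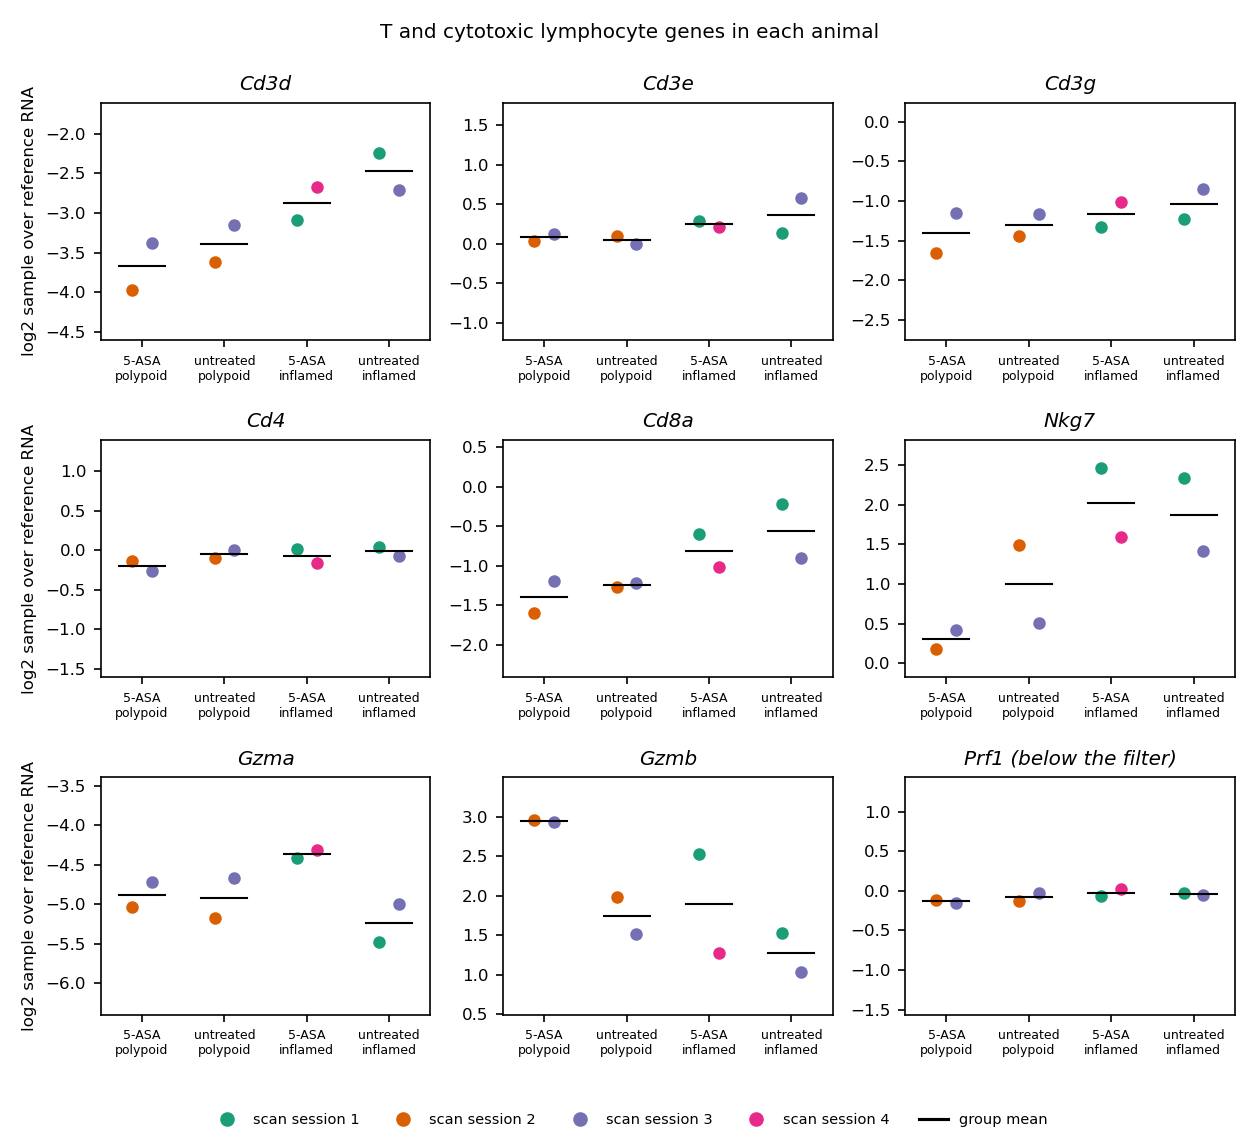
Log2 of sample over reference RNA (vertical axes, all at least 3 log2 units high) for the 9 genes in the 8 mice, by group. Points are mice, coloured by scan session, and lines are group means of 2 mice. Cd3d and Cd8a lie lower in all 4 polypoid than in all 4 inflamed samples, and both 5-ASA polypoid samples are the highest for Gzmb.

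Polypoid tissue was compared with inflamed tissue over both treatment arms, 4 mice against 4, to ask how the lymphocyte genes differed between the polyps and the inflamed mucosa of this model. The means of 7 genes were lower in polypoid tissue, with Nkg7, Cd3d and Cd8a furthest apart, and that of Gzmb was higher. None of the 8 tested genes passed the threshold (limma, Benjamini-Hochberg adjusted p under 0.05), where 5.93% of all genes did. The smallest adjusted p was 0.076. An unadjusted p under 0.05 was reached by 4 of the 8, against 23.2% of all genes. The median log2 difference of the 8 was -0.25, and that of all genes was -0.016. Without untreated inflamed replicate 2 the median of the 8 was -0.15. Negative differences made up 52.7% of all genes.

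Cd3d, the delta chain of the CD3 complex, had log2 values of -3.97 and -3.37 in 5-ASA polypoid and -3.62 and -3.15 in untreated polypoid tissue, against -3.08 and -2.67 in 5-ASA inflamed and -2.24 and -2.71 in untreated inflamed tissue. All 4 polypoid values lay below all 4 inflamed values. The tissue means were -3.53 ± 0.35 and -2.67 ± 0.35 (SD, n = 4 each), a 1.81-fold lower level in polypoid tissue (log2 difference -0.86 ± 0.21 SE, 95% interval -1.38 to -0.33, adjusted p = 0.076). In the order of the group means, 5-ASA polypoid was lowest, followed by untreated polypoid, 5-ASA inflamed and untreated inflamed tissue. Within each tissue the 2 neighbours overlapped, and the step between untreated polypoid and 5-ASA inflamed tissue did not. Within session 3, 2 polypoid samples minus 1 inflamed sample gave -0.56, and with session as a block the difference was -0.13.

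Cd3e, the epsilon chain, spanned a narrower range. It had values of 0.04 and 0.12 in 5-ASA polypoid and 0.10 and -0.01 in untreated polypoid tissue, against 0.28 and 0.21 in 5-ASA inflamed and 0.14 and 0.57 in untreated inflamed tissue. The tissues again did not overlap, and the difference was -0.24 ± 0.12 (adjusted p = 0.31). Within session 3 it was -0.52, and with session as a block -0.59. A second Cd3e probe, above background on 11 arrays, differed by -0.12 ± 0.09, and its tissues overlapped.

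Cd3g, the gamma chain, had values of -1.66 and -1.16 in 5-ASA polypoid and -1.45 and -1.17 in untreated polypoid tissue, against -1.32 and -1.01 in 5-ASA inflamed and -1.23 and -0.85 in untreated inflamed tissue. Its groups overlapped throughout, and the tissue difference was -0.25 ± 0.17 (adjusted p = 0.44). It was -0.31 within session 3 and -0.26 with session as a block. The 3 chains thus had differences of one sign and of unequal size, and 1 of them, Cd3d, had a 95% interval that left out 0.

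Of the co-receptors, Cd8a, the alpha chain of CD8, had values of -1.60 and -1.20 in 5-ASA polypoid and -1.26 and -1.22 in untreated polypoid tissue, against -0.59 and -1.02 in 5-ASA inflamed and -0.22 and -0.90 in untreated inflamed tissue. The tissues did not overlap, and polypoid tissue was 1.56-fold lower (-0.64 ± 0.20, 95% interval -1.12 to -0.16, adjusted p = 0.12). The inflamed samples were less alike than the polypoid ones, with an SD of 0.36 in inflamed and 0.19 in polypoid tissue (n = 4 each). Within session 3 the difference was -0.31, and with session as a block it was -0.12. Another Cd8a probe gave -0.66 ± 0.29, with overlapping tissues, and the third did not pass the filter. The second was kept only through 5-ASA inflamed tissue, where its mean was highest, so the filter itself favours a lower polypoid value and its sign is no support. Counting Cd3d, Cd3e and Cd8a, 3 of 8 genes were lower without overlap, where 7.91% of all genes were.

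Cd4, the co-receptor of helper and regulatory T cells, lay between -0.26 and 0.01 in all 4 polypoid samples and between -0.16 and 0.04 in all 4 inflamed samples. The tissues overlapped, with a difference of -0.07 ± 0.10 (95% interval -0.31 to 0.16, adjusted p = 0.70). Within session 3 the difference was -0.05, and with session as a block it was -0.03. The second Cd4 probe was above background on 0 of 15 arrays, in either channel.

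Nkg7, a membrane protein of cytotoxic granules, had the most negative tissue difference of the 8. It had values of 0.18 and 0.42 in 5-ASA polypoid and 1.50 and 0.51 in untreated polypoid tissue, against 2.46 and 1.59 in 5-ASA inflamed and 2.33 and 1.41 in untreated inflamed tissue. One polypoid sample, untreated replicate 1, lay above 1 inflamed sample, and the others did not overlap. Polypoid tissue averaged 0.65 ± 0.58 and inflamed tissue 1.95 ± 0.52 (SD, n = 4 each), 2.46-fold lower in polypoid tissue (-1.30 ± 0.34, 95% interval -2.12 to -0.48, adjusted p = 0.083). In 5-ASA mice alone, the difference was -1.72 ± 0.48 (adjusted p = 0.12), and in untreated mice it was -0.87 ± 0.48 (adjusted p = 0.51). Within session 3 it was -0.95, and with session as a block -1.01. The second Nkg7 probe had a smaller difference of -0.41 ± 0.21 with overlapping tissues. It was kept only through untreated inflamed tissue, its highest group, so its sign is no support either. It was dimmer, above background on 12 arrays in the sample and 7 in the reference channel, against 15 and 12 for the representing probe.

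**Figure D2:**
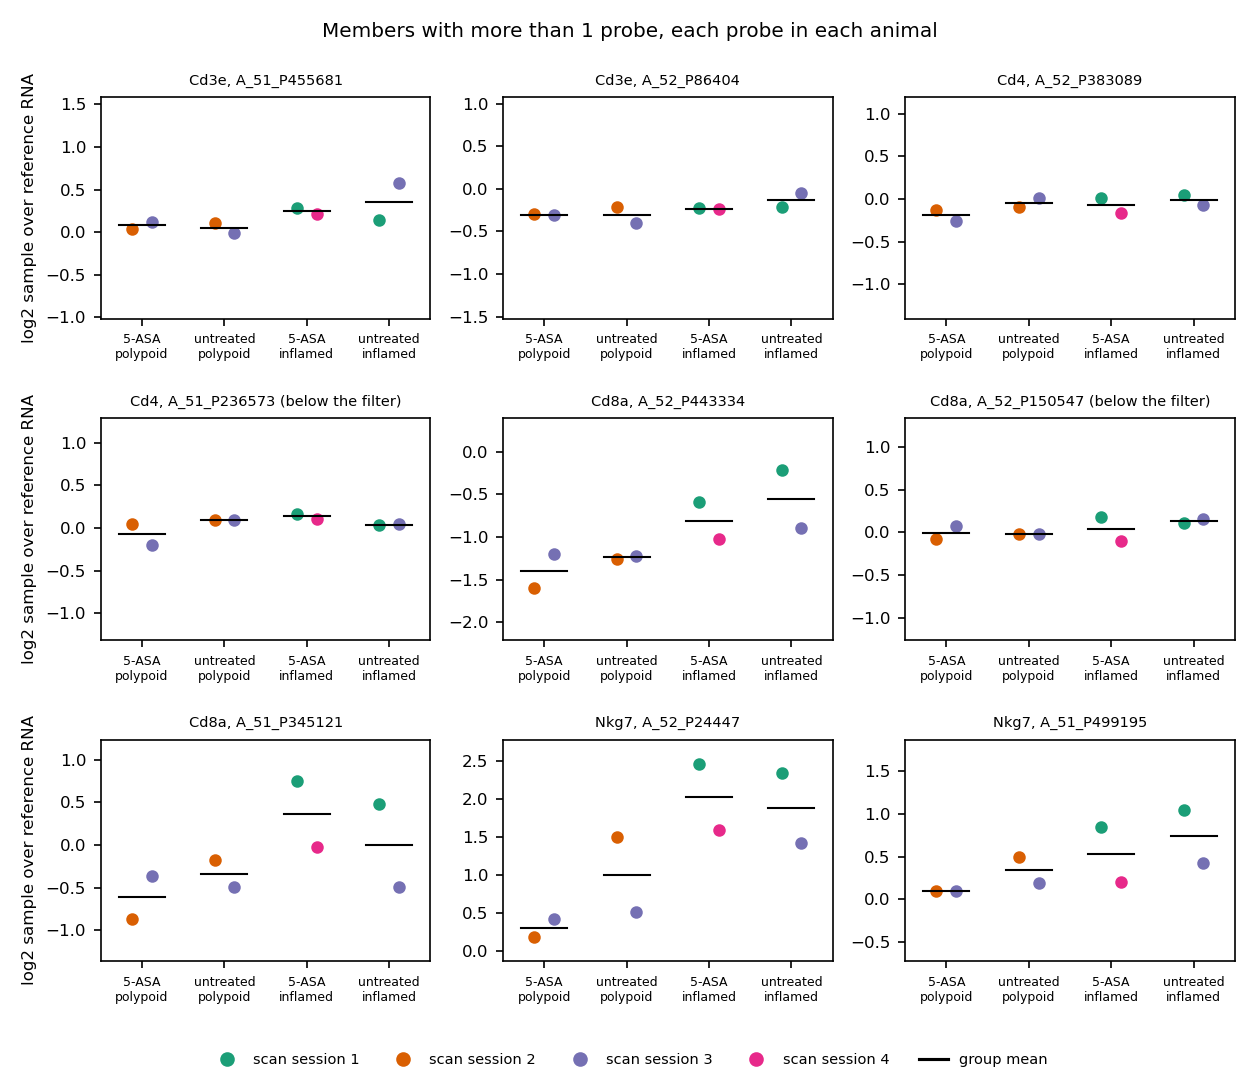
Log2 of sample over reference RNA (vertical axes) for each probe of the 4 genes with more than 1 probe, by group and mouse. Points are mice, coloured by scan session, and lines are group means of 2 mice. The second probes of Cd8a and Nkg7, kept only through their highest, inflamed group, have overlapping tissues, and the probes below the filter stay near 0.

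Gzma, a granzyme with trypsin-like specificity, had values of -5.04 and -4.72 in 5-ASA polypoid and -5.17 and -4.67 in untreated polypoid tissue, against -4.41 and -4.32 in 5-ASA inflamed and -5.47 and -4.99 in untreated inflamed tissue. The inflamed groups were the highest and the lowest of the 4, with the polypoid groups between them. The tissue difference was -0.10 ± 0.17 over both arms (adjusted p = 0.78), and it was -0.51 ± 0.25 in 5-ASA mice and 0.31 ± 0.25 in untreated mice. Within session 3, where the only inflamed sample was untreated, it was 0.30, of the opposite sign to the difference over both arms. Between the untreated samples of that session it was 0.32. With session as a block, the difference over both arms was -0.23.

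Gzmb, the granzyme that cleaves after aspartate and can activate caspases, was the only one of the 8 with a higher mean in polypoid tissue. It had values of 2.96 and 2.93 in 5-ASA polypoid and 1.98 and 1.51 in untreated polypoid tissue, against 2.52 and 1.28 in 5-ASA inflamed and 1.52 and 1.04 in untreated inflamed tissue. Polypoid tissue was 1.68-fold higher (0.75 ± 0.30, 95% interval 0.03 to 1.47, adjusted p = 0.20), but its range overlapped that of inflamed tissue. Within session 3 the difference was 1.18, or 0.47 between the untreated samples alone, and with session as a block 0.68. The 3 tested granule genes thus had means that were lower (Nkg7), close (Gzma) and higher (Gzmb) in polypoid tissue, none of them past the threshold.

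Prf1, the perforin gene, was above background on 10 of 15 arrays. Its values lay between -0.15 and -0.02 in the polypoid and between -0.07 and 0.02 in the inflamed samples. At this brightness, near local background, a difference in perforin RNA was not detectable.

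**Figure D3:**
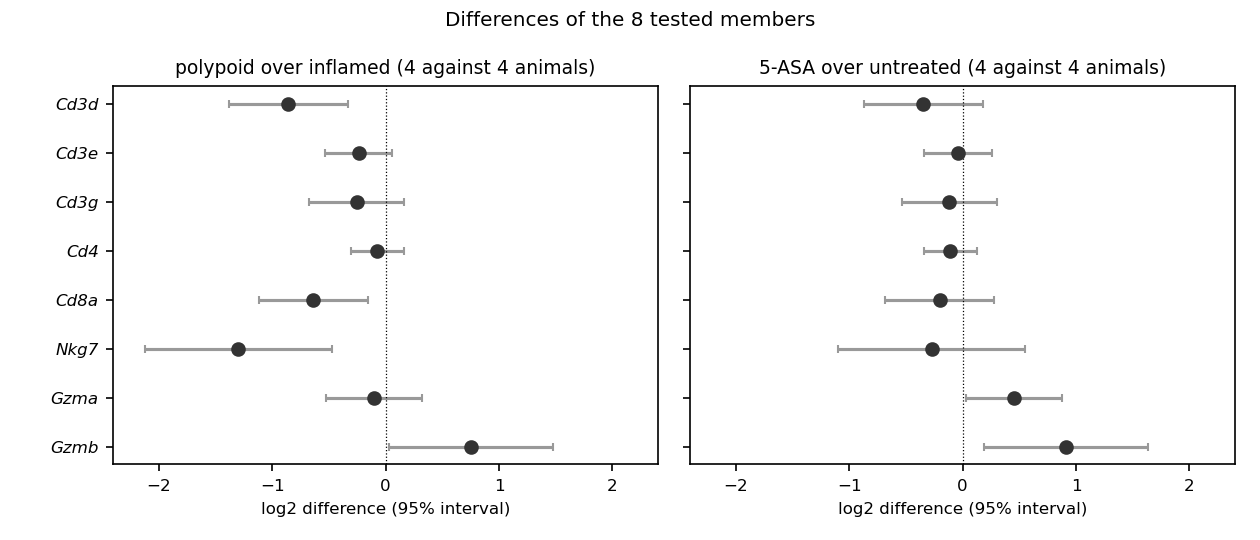
Log2 differences (horizontal axes) of the 8 tested genes for polypoid over inflamed tissue (left) and 5-ASA over untreated mice (right), 4 mice against 4 in each. Points are limma estimates and bars their 95% intervals. On the left the intervals of Cd3d, Cd8a and Nkg7 lie below 0 and that of Gzmb above it, and on the right those of Gzma and Gzmb lie above 0. None passed after adjustment over all genes.

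Taken by arm, the tissue comparison rested on 2 mice against 2. In 5-ASA mice 5 of the 8 genes were lower without overlap (Cd3d, Cd3e, Cd8a, Nkg7 and Gzma) and 1 was higher (Gzmb), and none passed the threshold. With 2 against 2, 28.5% of all genes were lower and 26.7% higher without overlap, and 3.06% of all genes passed. In untreated mice 3 of 8 were lower without overlap (Cd3d, Cd3e and Cd8a), against 22.4% of all genes, and none passed, against 0.164% of all genes. The medians of the 8 differences were -0.38 in 5-ASA mice and -0.29 in untreated mice. Without 5-ASA polypoid replicate 2 the first was -0.58, and without untreated inflamed replicate 2 the second was -0.092.

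Some markers of other cell types differed between the tissues, where 3.97% of all genes rose and 1.97% fell. Their part in the lymphocyte values was not tested. The mean of 7 measured B and plasma cell markers was 0.35 to 1.85 in polypoid and 1.60 to 3.56 in inflamed samples, and 1 of the 7 fell. The mean of 6 smooth muscle markers was 0.47 to 1.12 in polypoid and 1.32 to 3.72 in inflamed samples, and 3 of the 6 fell. The mean of 4 neutrophil markers was 2.49 to 3.34 in polypoid and 0.34 to 0.93 in inflamed samples, and 2 of the 4 rose. Of 3 measured mast cell markers 1 rose, with means of 0.69 to 1.63 in polypoid and 0.53 to 1.23 in inflamed samples. The mean of 3 measured dendritic cell markers was 0.95 to 1.20 in polypoid and 1.23 to 1.78 in inflamed samples, and 0 of the 3 passed. The mean of 3 intraepithelial lymphocyte markers (Itgae, Cd160 and Ccr9) was 0.17 to 0.34 in polypoid and 0.36 to 0.58 in inflamed samples, and 0 of the 3 passed. Markers common to all leukocytes overlapped, at -0.96 to -0.48 in polypoid and -1.33 to 0.46 in inflamed samples, with 0 of 3 past the threshold. The 8 epithelial markers also overlapped, at 2.36 to 3.12 in polypoid and 2.84 to 3.26 in inflamed samples. Macrophage markers averaged 1.18 to 1.80 in polypoid and 1.12 to 1.95 in inflamed samples. Fibroblast markers averaged -1.02 to 0.04 and -0.81 to -0.11, and endothelial markers 1.78 to 2.27 and 1.74 to 2.26, in the same order. These ranges overlapped too, with 0 markers of these types past the threshold.

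The effect of the drug was asked by comparing 5-ASA with untreated mice. Gzmb and Gzma had the most positive differences of the 8 genes, and the other 6 had lower means in 5-ASA mice. No gene of the whole table passed the threshold over both tissues, in polypoid tissue or in inflamed tissue (limma, 0% each), while 1360 (6.38%), 1653 (7.76%) and 933 (4.38%) of the 21300 genes had an unadjusted p under 0.05. The values below are therefore descriptions of which samples were high or low.

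For Gzmb the values given above place both 5-ASA polypoid samples over both untreated polypoid samples. The group means were 2.94 ± 0.02 in 5-ASA polypoid and 1.74 ± 0.33 in untreated polypoid tissue (SD, n = 2 each), a difference of 1.20 ± 0.42 SE (2.29-fold, 95% interval 0.18 to 2.22, adjusted p = 0.61). Each polypoid pair was scanned together, and 5-ASA minus untreated was 0.98 in session 2 and 1.41 in session 3. In inflamed tissue the groups overlapped and the difference was 0.62 ± 0.42 (adjusted p = 0.98), with 1.001 in session 1, where 1 mouse of each arm was scanned. It rested on 5-ASA inflamed replicate 1, without which it was -0.00098, and without untreated inflamed replicate 2 it was 0.38. Over both tissues the difference was 0.91 ± 0.30 (1.88-fold, adjusted p = 0.77). The reference channel of the Gzmb probe was above background on 12 of 15 arrays.

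For Gzma, the arms lay further apart in inflamed than in polypoid tissue. In inflamed tissue it averaged -4.36 ± 0.07 in 5-ASA mice and -5.23 ± 0.34 in untreated mice (SD, n = 2 each). The groups did not overlap, and the difference was 0.87 ± 0.25 SE (1.83-fold, adjusted p = 0.98), with 1.06 within session 1. In polypoid tissue the difference was 0.04 ± 0.25, with 0.13 and -0.05 in sessions 2 and 3. The test of the difference between the tissues gave -0.83 ± 0.35 (adjusted p = 0.86). Across the 8 genes the interaction estimates ran between -0.85 and 0.58, with adjusted p of 0.86 or higher.

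Nkg7 in polypoid tissue was lower in both 5-ASA samples than in both untreated samples, a difference of -0.70 ± 0.48 (adjusted p = 0.78). The session 2 pair differed by -1.32 and the session 3 pair by -0.08. Cd4 was also lower without overlap there, with a difference of -0.15 ± 0.14. Gzmb higher and Nkg7 and Cd4 lower made 1 of 8 and 2 of 8 genes without overlap in polypoid tissue, where 21.3% of all genes were higher and 19.2% lower. In inflamed tissue 1 of 8 was higher without overlap (Gzma) and 0 lower, against 14.9% and 14.6% of all genes. In polypoid tissue the B and plasma cell markers averaged 0.42 and 0.35 in the 5-ASA mice and 1.80 and 1.85 in the untreated mice, and their part was not tested.

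The CD3 chains and Cd8a had lower means over both tissues in 5-ASA mice. Their pooled within-group SD was 0.35 for Cd3d, 0.16 for Cd3e, 0.27 for Cd3g and 0.32 for Cd8a. The difference between the arms was about as large as this SD for Cd3d, and smaller for Cd3e, Cd3g and Cd8a. Over both tissues 5-ASA minus untreated was -0.35 ± 0.21 for Cd3d, -0.04 ± 0.12 for Cd3e, -0.12 ± 0.17 for Cd3g and -0.20 ± 0.20 for Cd8a. Every 95% interval of these 4 held 0, and the widest, that of Cd3d, ran between -0.87 and 0.18. Within the 3 sessions that held both arms of a tissue, Cd3d was lower in the 5-ASA mouse each time, with differences of -0.35 and -0.22 in polypoid and -0.85 in inflamed tissue.

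**Figure D4:**
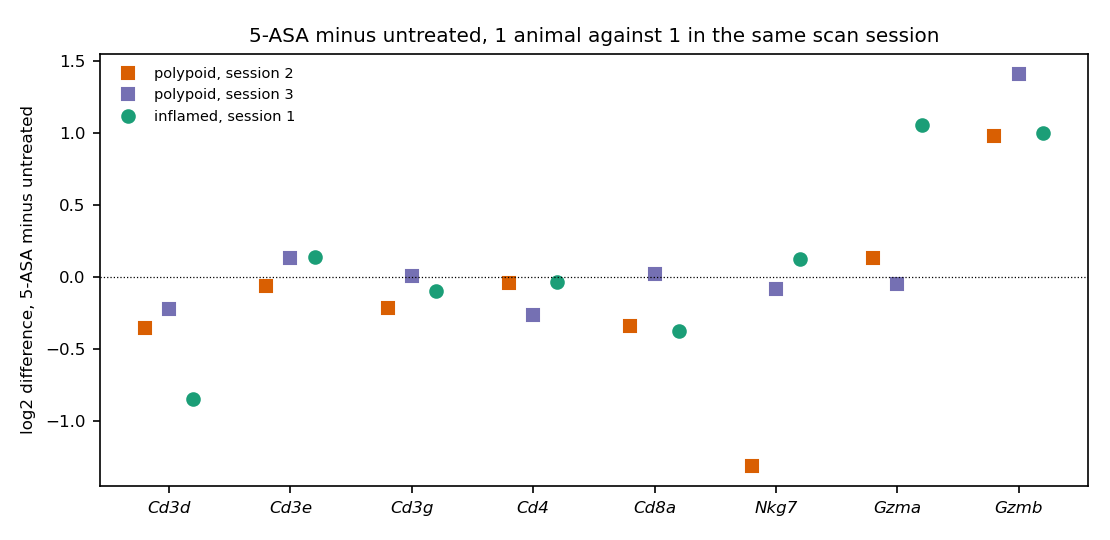
Log2 difference of 5-ASA minus untreated (vertical axis) for the 8 tested genes, each point 1 mouse against 1 of the same tissue scanned in the same session. Squares are polypoid and circles inflamed tissue. Gzmb is above 0 in all 3 pairs, at 0.98 to 1.41, and Gzma only in the inflamed pair by more than 0.2.

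The wider T cell and killer cell programmes were described with 3 lists. Of 25 genes of T cell receptor signalling and co-stimulation, 23 were tested (Cd28 and Ubash3a did not pass the filter). Between polypoid and inflamed tissue 0 rose and 1 fell, against 3.97% and 1.97% of all genes, and 21 of the 23 had differences below 0, with a median of -0.27. That median was -0.10 within session 3 and 0.04 with session as a block. The gene that fell was Cd7, a surface protein of T and natural killer cells. Cd7 had values of -0.65 and -0.14 in 5-ASA polypoid and 0.57 and -0.08 in untreated polypoid tissue, against 1.82 and 0.83 in 5-ASA inflamed and 1.44 and 1.48 in untreated inflamed tissue. It fell 2.77-fold (-1.47 ± 0.27, adjusted p = 0.036), without overlap between the tissues, and differed by -1.60 within session 3. Leaving out 1 mouse ended the call for 6 of the 8 mice, with differences of -1.60 to -1.22 and adjusted p of 0.076 to 0.11, these being every mouse but untreated polypoid replicate 1 and 5-ASA inflamed replicate 2. Other genes of the list passed when 1 mouse was left out, named here after their values were seen. They were Skap1, an adaptor of T cell receptor signalling, without untreated polypoid replicate 2 (-0.81, adjusted p = 0.043), and Cd8b1 (-1.07, adjusted p = 0.045) and Ptprcap (-0.67, adjusted p = 0.047) without untreated inflamed replicate 2.

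Of 16 T cell transcription factors and cytokine or chemokine receptors, all were tested. Of these 2 rose and 1 fell, against 3.97% and 1.97% of all genes, with a median of -0.08. The median was 0.10 within session 3 and -0.07 with session as a block. In 5-ASA mice alone 2 of the 16 also rose and 1 fell (smallest limma adjusted p = 0.018), against 2.04% and 1.02% of all genes. In untreated mice alone 0 rose and 0 fell, against 0.16% and 0.00469% of all genes. Cxcr3, the receptor of interferon-induced chemokines on activated T cells, fell 2.13-fold (-1.09 ± 0.12, adjusted p = 0.012). Its values were -1.91 and -2.15 in 5-ASA polypoid and -1.56 and -1.54 in untreated polypoid tissue, against -0.89 and -0.95 in 5-ASA inflamed and -0.27 and -0.67 in untreated inflamed tissue. Without 5-ASA inflamed replicate 1, Cxcr3 differed by -1.08 (adjusted p = 0.069). Within session 3 Cxcr3 differed by -1.18.

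The 2 that rose were Lef1 (4.95-fold, 2.31 ± 0.19, adjusted p = 0.0056) and Tcf7 (4.10-fold, 2.04 ± 0.29, adjusted p = 0.019). Both are DNA-binding factors of T cell development and of the Wnt pathway, which epithelial cells also use. Lef1 lay between -1.49 and 0.06 in polypoid and between -3.64 and -2.73 in inflamed samples. Tcf7 lay between -2.37 and -1.19 in polypoid and between -4.21 and -3.43 in inflamed samples. Within session 3 Lef1 differed by 2.62 and Tcf7 by 2.19. The other Lef1 probe had a smaller difference of 0.49. The other Tcf7 probe had no rise (-0.03), so that of Tcf7 rested on its representing probe alone. Tcf7 lost its call without either 5-ASA polypoid mouse, without 5-ASA inflamed replicate 1 and without untreated inflamed replicate 2, with differences of 1.87 to 2.08 and adjusted p of 0.055 to 0.088.

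Of 31 further cytotoxic granule and killer cell genes 24 were tested, and the 7 that did not pass the filter were Gzmd, Gzmf, Gzmg, Gzmk, Gzmn, Ncr1 and Serpinb9. Of the 24 tested, 1 rose and 0 fell, against 3.97% and 1.97% of all genes. The median was -0.09, or 0.04 within session 3 and 0.02 with session as a block. Cd244a, an activating or inhibitory receptor of natural killer cells and some CD8 T cells, rose 5.70-fold (2.51 ± 0.16, adjusted p = 0.0035). Its values were 4.05 and 3.82 in 5-ASA polypoid and 2.74 and 2.89 in untreated polypoid tissue, against 1.05 and 1.20 in 5-ASA inflamed and 0.92 and 0.29 in untreated inflamed tissue. It also rose within each arm, by 2.81 ± 0.23 in 5-ASA mice (adjusted p = 0.014) and 2.21 ± 0.23 in untreated mice (adjusted p = 0.040). Within session 3 it differed by 3.07. Its 2 other probes gave 1.01 and 0.84. The remaining 23 genes did not pass, and 4 of them are named after their values were seen. The chemokine Ccl5 differed by -1.80 ± 0.52 (adjusted p = 0.10) and the lectin-like receptor Klrd1 by -1.27 ± 0.40 (adjusted p = 0.13). Gzmc, a granzyme of the Gzmb family, was 2.09 in 5-ASA polypoid replicate 2 and between -0.03 and 0.30 in the 7 other samples. Without 5-ASA polypoid replicate 1 Gzmc passed (1.04, adjusted p = 0.035), with the high sample then standing alone for its group. Without untreated inflamed replicate 2 the peptidase gene Ctsw passed (-1.01, adjusted p = 0.039), against an adjusted p of 0.059 with all mice.

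**Figure D5:**
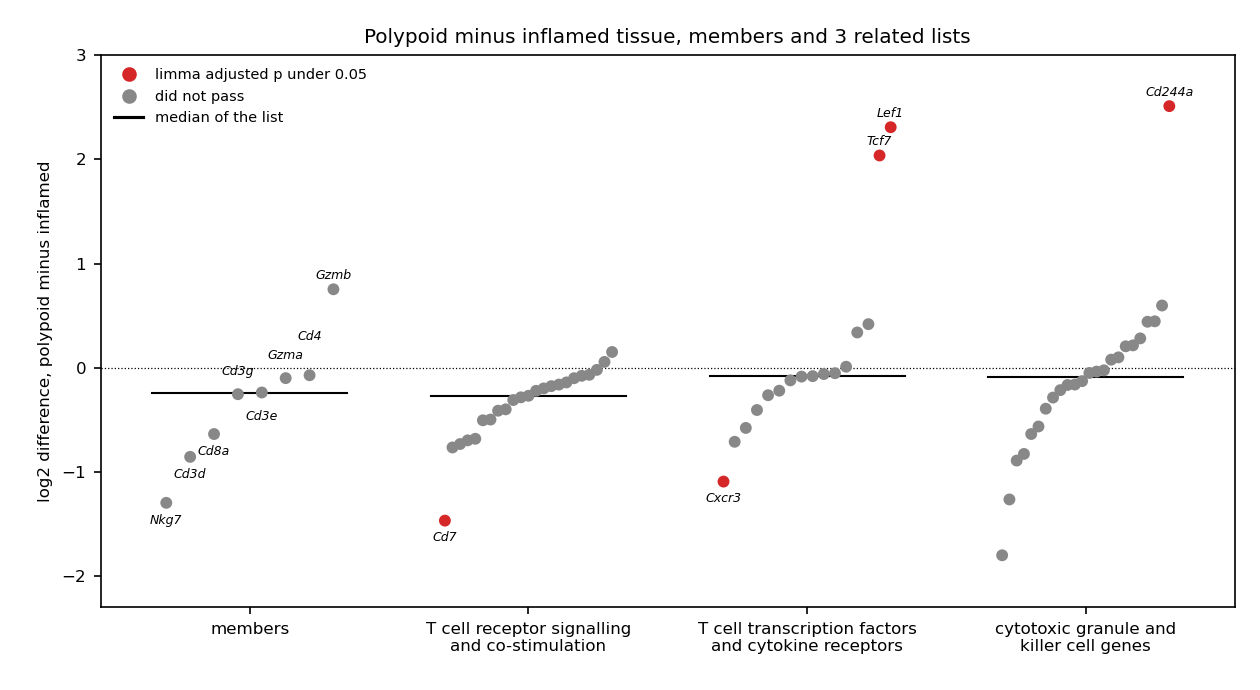
Log2 difference of polypoid minus inflamed tissue (vertical axis, 4 mice against 4) for the 8 tested member genes and the tested genes of 3 related lists, each sorted by its difference. Red points passed the threshold (limma adjusted p under 0.05), grey points did not, and lines are medians. Cd7 and Cxcr3 lie low and Lef1, Tcf7 and Cd244a lie high, with most genes of the receptor signalling list a little below 0.

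Under 5-ASA none of the 63 tested genes of the 3 lists passed the threshold in any comparison with untreated mice. The medians over both tissues were -0.16 for receptor signalling, -0.04 for transcription factors and receptors, and 0.09 for granule and killer cell genes, and that of all genes was -0.007. Below 0 were 19 of the 23 receptor signalling genes, against 51.9% of all genes.

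The member genes varied unequally over the 8 mice. The SD of Nkg7 was 0.86, of Gzmb 0.75 and of Cd3d 0.56, against a median of 0.28 over all genes, and Cd4 had the lowest, at 0.10. The genes whose profile over the 8 mice was nearest to the mean of the 3 CD3 chains were Fn3k, Arhgap10, Cryab, Pcsk2 and Foxh1, with root mean square differences of 0.088 to 0.105 after centring, against a median of 0.374 over all genes. Nearest to the mean of Gzma, Gzmb and Nkg7 were Dok4, Irf2, Glt28d2, P2ry14 and Stxbp6, at 0.086 to 0.130 against a median of 0.398. None of these 10 was a member of the 3 lists. The 10 were picked as the nearest of all genes, so lying below the median was fixed by that choice. The second profile averaged Gzmb and Nkg7, whose tissue differences had opposite signs.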

How the data were processed

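The deposited scanner files hold intensity values per spot and channel, read by Agilent Feature Extraction 9.1.1.1 per the file headers, and a log10 ratio that was used only to find the direction of the deposited table. The authors' deposited processed values are log2 ratios, sample against reference, with swapped dyes already turned, and served as an alternative, with background correction and normalization not given in the sources used here.

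With limma 3.58.1 (R 4.3.3, statmod 1.5.0), intensities were background-corrected (normexp, offset 50), normalized by loess within arrays and turned to log2 of sample over reference. A fit of animal plus dye over 15 arrays gave 1 value for each of 8 mice. A gene was represented by its kept probe with the highest mean brightness. Group means were fitted over all 8 mice, with 4 residual and 2.14 prior degrees of freedom. Benjamini-Hochberg adjustment covered the 21300 genes of each of 7 comparisons. The fit was tested on data simulated with independent noise and no session effect, so that test does not bear on the scan sessions. The labels give each of the 8 mice its own identifier, so polypoid and inflamed tissue came from different mice. The 2 mice per group limit the precision. Replicate numbers were not taken as pairs, because the labels give no shared litter or day. Same-numbered samples did deviate together somewhat, at r of 0.03 to 0.36, and replicate number also followed scan session. A replicate block is therefore given as an alternative.

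The 9 genes and the 3 lists were chosen with earlier results of these data known. One gene of the list of transcription factors and receptors is not reported here and was left out of that list's counts and median. Named from each list were the genes past the threshold in any comparison. The 5 nearest profiles were to be taken for 4 granule genes, and Prf1, which was not tested, was left out. Alternatives were other signals, the deposited table, scaling, filter, probe rule, dye handling, samples in the fit, a replicate or session block, and leaving out each mouse.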

Additional observations from a re-analysis of the deposited data

How the results depend on the processing

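No member gene was called in the fit reported above, and of 984 fits of single member genes under the alternatives 4 were called. With Feature Extraction's processed signals 2 members passed for polypoid over inflamed tissue over both arms, Cd3d (-1.04, adjusted p = 0.041) and Nkg7 (-1.74, adjusted p = 0.022), and 1 passed in 5-ASA mice, Nkg7 (-2.55, adjusted p = 0.028). With the replicate number as a block 1 member passed over both arms, Nkg7 (-1.30, adjusted p = 0.036), and the block changed no other member's call. Over both arms the Cd3d difference kept its sign in all 18 alternatives (-1.04 to -0.13, adjusted p 0.041 to 0.77), as did that of Nkg7 (-1.74 to -0.86, adjusted p 0.022 to 0.47). The Cd3d difference in 5-ASA mice turned to 0.15 with a session block. The Gzmb difference of 5-ASA over untreated mice was positive in all 17 alternatives over both tissues (0.60 to 1.22), and in 18 of 19 in inflamed tissue (-0.00098 to 1.24). Among the alternatives, the scaling between arrays, the replicate block and a fit of the compared groups alone could not change an estimate. Neither could the filter or the probe rule for Cd3d and Gzmb, which had 1 probe each. Every polypoid Cd3d value lay below every inflamed one, so leaving out a mouse could not turn its sign over both arms. A kept sign in these settings adds nothing. The members' median was -0.55 in untreated mice with processed signals, where the median of all genes was -0.11, and -0.18 in 5-ASA mice with a session block. The cause was not tested. When each mouse was left out in turn, the median lay between -0.35 and -0.15 for the tissues over both arms, between -0.38 and -0.092 for those of untreated mice, between -0.58 and -0.27 for those of 5-ASA mice, between -0.24 and 0.060 for 5-ASA in polypoid tissue, and between -0.14 and 0.23 for the difference of the drug effect. Over all genes, the calls for polypoid over inflamed tissue were 1264 over both arms (0 with a session block to 1800 with processed signals), 651 in 5-ASA mice (0 to 1177) and 35 in untreated mice (0 to 118). With a session block no gene of the lists passed either. Over both arms Cd7 then differed by -1.79, Cxcr3 by -0.87, Lef1 by 2.43, Tcf7 by 2.58 and Cd244a by 3.00. With the deposited table Cd7 missed the threshold (adjusted p = 0.057). With all mice kept, other list genes were called lower over both arms in 3 settings. With the replicate block these were Skap1, Thy1, Ctsw, Klrd1 and Ccl5 (adjusted p 0.026 to 0.044), which moved the list counts of lower genes to 3 for receptor signalling and 3 for granule genes, against 1 and 0. With processed signals they were Skap1, Il7r, Ctsw, Klrd1 and Ccl5 (0.012 to 0.044), and with the mean of all kept probes Cd6 and Skap1 (both 0.047). Within an arm, Lef1 passed in untreated mice with processed signals, with the probe mean and with the replicate block (0.035 to 0.041). In 5-ASA mice Cd7 (0.035) and Ctsw (0.019) passed with processed signals, Ctsw with the replicate block (0.047) and Rab27a in a fit of the compared groups alone (0.044). Brightness limits Prf1, the second Cd4 probe and the third Cd8a probe.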
